A study of Mus musculus with 12 samples.

Results

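The genes described here are 47 genes of DNA replication and S phase, chosen by name for their known roles, with no measured value in the rule. All 47 were found among the 25117 gene symbols of the expression table, and all 47 passed the filter on low values, which 12653 symbols passed. The list holds 11 genes of origin licensing, 6 of helicase activation, 9 DNA polymerase and primase subunits, 11 genes of the sliding clamp, its loader and lagging-strand processing, 4 of nucleotide supply, 3 of chromatin copying and 3 of the G1/S switch.

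A cell copies its genome once per division. In G1 the origin recognition complex (ORC), CDC6 and CDT1 load the MCM helicase onto origins, and geminin blocks CDT1 afterwards so that no origin fires again. In S phase CDC45 and the GINS complex switch the helicase on, DNA polymerases alpha, delta and epsilon copy the strands, and PCNA, a ring loaded by replication factor C (RFC), holds the polymerases on DNA. Many of these genes are transcribed at the G1/S transition by E2F factors, which the RB proteins hold in check until cyclin E and CDK2 act. Cultured embryonic fibroblasts in serum divide and so carry these transcripts, and withdrawal of serum or amino acids is a classical way of stopping them in G1.

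The libraries come from mouse embryonic fibroblasts (MEFs), which all carry Rbbp5 (flox/flox) and Rosa26 CRE (+/+). RBBP5 belongs to the core of the COMPASS complexes, enzymes that methylate histone H3 at lysine 4. KO cells had 7 days of tamoxifen, the drug used to induce Cre-driven deletion of a floxed gene in such lines, and wildtype cells had none. Both then spent 16 hours in full DMEM with 10% FBS or in EBSS, a salt solution with glucose but no amino acids or serum. Polyadenylated RNA of 3 libraries per group, 12 in all, was sequenced. Since no wildtype group had the drug, what tamoxifen or Cre does by itself cannot be told apart from the deletion. The labels number the replicates but do not say that they are separate cultures or embryos, so the p-values measure only the spread between these libraries. In bulk RNA, fewer cells of a type and less RNA per cell cannot be told apart, and a lower level of an S-phase gene can be either.

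Levels are in TPM, a unit of transcript abundance corrected for transcript length. The deposited columns summed to 923097 to 941267 TPM in the EBSS libraries labelled wildtype and 983769 to 993651 TPM in the other 9. Rbbp5 (ENSMUSG00000026439.14, chromosome 1, 132477365 to 132505659) was checked first. It stood at 26.2, 25.7 and 26.2 TPM in the wildtype and 7.47, 9.34 and 8.31 TPM in the KO libraries in full medium, which is −1.53 on the log2 scale (SE 0.13, adjusted p = 3.4e-06 by limma). In EBSS it stood at 12.4, 14.0 and 11.8 TPM in the libraries labelled wildtype and 31.9, 24.6 and 23.0 TPM in those labelled KO (log2 difference 0.99, adjusted p = 3.2e-05). The libraries labelled KO thus showed no loss of Rbbp5, at 0.01 from wildtype in full medium (0.05 after the rescaling described next). Those labelled wildtype differed from wildtype in full medium by −0.98 as deposited (adjusted p = 3.3e-05), but by −0.02 rescaled (adjusted p = 0.88). Against KO in full medium they lay higher by 0.55 (adjusted p = 0.0026) and by 1.32 rescaled (adjusted p = 2.4e-06). The KO label is therefore in doubt on both scales. For the wildtype label, the deposited −0.98 stood beside a median of −0.94 over all tested genes in that comparison. Whether the wildtype label is right was not tested. The EBSS libraries are called by their labels throughout.

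The 3 EBSS libraries labelled wildtype also stood apart in composition. Ribosomal protein genes held 31.7% to 34.2% of their TPM against 14.7% to 18.5% in the other 9 libraries, the ribosomal RNA gene Rn45s stood at 1454 to 2105 TPM against 68.3 to 272 TPM, and the median tested gene at 10.1 to 10.5 TPM against 17.5 to 23.0 TPM. A larger share of the TPM for some genes leaves less for the rest. How much of the lower median this accounts for was not tested, and the level of most genes depends on the scale. Each change is therefore given on 2 scales, as deposited and after dividing each library by its median-of-ratios factor (0.593 to 0.636 in those 3 libraries, 1.03 to 1.26 in the others), here called rescaled. Rescaled, the 2 EBSS groups differed in Rbbp5 by 0.07 (adjusted p = 0.59). Replicate 3 of the group labelled wildtype, EBSS correlated less with its replicates (r = 0.942 and 0.941 on log2(TPM + 1) across genes) than these did with each other (0.9901). It had 1122 tested genes at 0 TPM, against 190 and 229 in its replicates and 12 to 130 in the other 9 libraries. Whether this bears on its low values was not tested. Replicate 1 of the group labelled KO, EBSS also correlated less with its replicates (0.973 and 0.972) than these did with each other (0.996).

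As markers of the labelled cell type, Vim was at 1973 to 3235 TPM in all 12 libraries, and the summed fibroblast list at 5353 to 5463 TPM in wildtype and 3594 to 3904 TPM in KO libraries in full medium, 2651 to 3115 TPM in EBSS libraries labelled wildtype and 3937 to 5586 TPM in those labelled KO. Macrophage genes summed to 16.96 to 17.3, 60.8 to 65.4, 17.8 to 77.0 and 17.3 to 21.0 TPM in the same order. They were mostly Cd68, except in the library with 77.0 TPM. The 77.0 TPM was replicate 3 of the group labelled wildtype, EBSS, mostly Lyz2 (48.4 TPM against 2.22 and 2.93 in its replicates), with Adgre1 at 3.38, Csf1r at 2.84, Itgam at 1.28 and Ptprc at 0.734 TPM, the highest of each in any library. Muscle genes, mostly Des, summed to 1.10 to 1.25, 7.43 to 8.23, 1.61 to 2.81 and 1.71 to 2.28 TPM with Myod1 at most at 0.043 TPM. Endothelial genes summed to 3.31 to 3.57, 0.874 to 1.18, 1.58 to 7.39 and 3.11 to 3.92 TPM, epithelial genes, mostly Krt19, to 158 to 172, 243 to 278, 212 to 229 and 99.5 to 144 TPM, and neural genes, mostly Nes, to 146 to 159, 75.3 to 84.4, 45.5 to 59.3 and 97.8 to 179.6 TPM. The part of these shifts in the results was not tested.

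Some of these genes share letters in their promoters. RefSeq (GRCm38.p6) promoters, from 250 bases before to 50 after a gene's start, matched 38 of the 47 genes. The letters TTTGGCGC, TTTCCCGC, TTTCGCGC and TTTGCCGC, forms of the E2F site that can overlap each other, were searched on both strands in the 250 bases before the start. They occurred in 9 of the 38 genes (23.7%), which is 20.5% of the genes' 44 promoter entries against 1.86% of all 32851 entries and 3.31% of the 12735 entries of tested genes. The shorter CCAAT, the letters bound by NF-Y, occurred in 23 genes (60.5%) and in 56.8% of their entries, against 33.8% of all entries and 35.8% of those of tested genes. Windows of 30 bases around 1 match each are shown for 8 of the 9 genes, since the rule that chose the genes did not use them. The remaining gene is Rfc3. Each is written 5′ to 3′ on the gene's strand with the match in capitals.
Mcm7, chr5:138172030-138172059, minus strand, 165 bases before the start: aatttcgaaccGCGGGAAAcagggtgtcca
Orc1, chr4:108579416-108579445, plus strand, 27 bases before the start: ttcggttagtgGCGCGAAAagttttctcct
Cdc6, chr11:98908002-98908031, plus strand, 138 bases before the start: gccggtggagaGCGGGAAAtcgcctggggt
Gins3, chr8:95633507-95633536, plus strand, 41 bases before the start: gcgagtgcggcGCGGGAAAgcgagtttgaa
Uhrf1, chr17:56304117-56304146, plus strand, 185 bases before the start: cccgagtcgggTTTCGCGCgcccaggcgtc
Mcm5, chr8:75109349-75109378, plus strand, 149 bases before the start: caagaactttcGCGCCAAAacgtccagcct
Mcm6, chr1:128359734-128359763, minus strand, 47 bases before the start: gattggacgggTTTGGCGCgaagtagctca
Pola1, chrX:93632275-93632304, minus strand, 138 bases before the start: gtcatcacaggGCGCCAAAtgcactcccgc
In Mcm7, Orc1, Cdc6, Gins3, Mcm5 and Pola1 the letters shown lie on the opposite strand and read as their reverse complement, and in Uhrf1 and Mcm6 on the gene's own strand. Mcm7, Orc1 and Cdc6 load or form the helicase and Gins3 is a GINS subunit. The windows of Mcm5, Mcm6 and Pola1 lie outside the GENCODE gene, that of Orc1 runs across its start, and the others lie inside a gene model that begins further upstream. A match is a description of letters and not evidence of binding.

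Over all libraries the 47 genes ranged from 2.53 to 845 TPM. Their summed level was 5517 to 5583 TPM in wildtype and 5600 to 5798 TPM in KO libraries in full medium, 3622 to 3732 TPM in EBSS libraries labelled wildtype and 4848 to 5173 TPM in those labelled KO. Rescaled, the sums were 4443 to 4487, 5089 to 5449, 5837 to 6105 and 3839 to 4363, so the EBSS libraries labelled wildtype had the lowest sum on the deposited scale and the highest on the other. By group mean, the deposited level was highest in wildtype full medium for 19 genes, in KO full medium for 21, in labelled wildtype EBSS for 3 and in labelled KO EBSS for 4. Rescaled, these numbers were 8, 17, 20 and 2. No such count over all tested genes is given, so these numbers do not set the 47 apart from other genes. Over all tested genes, the median change from wildtype full medium to labelled wildtype EBSS was −0.94 as deposited and −0.09 rescaled (log2).

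**Figure D1:**
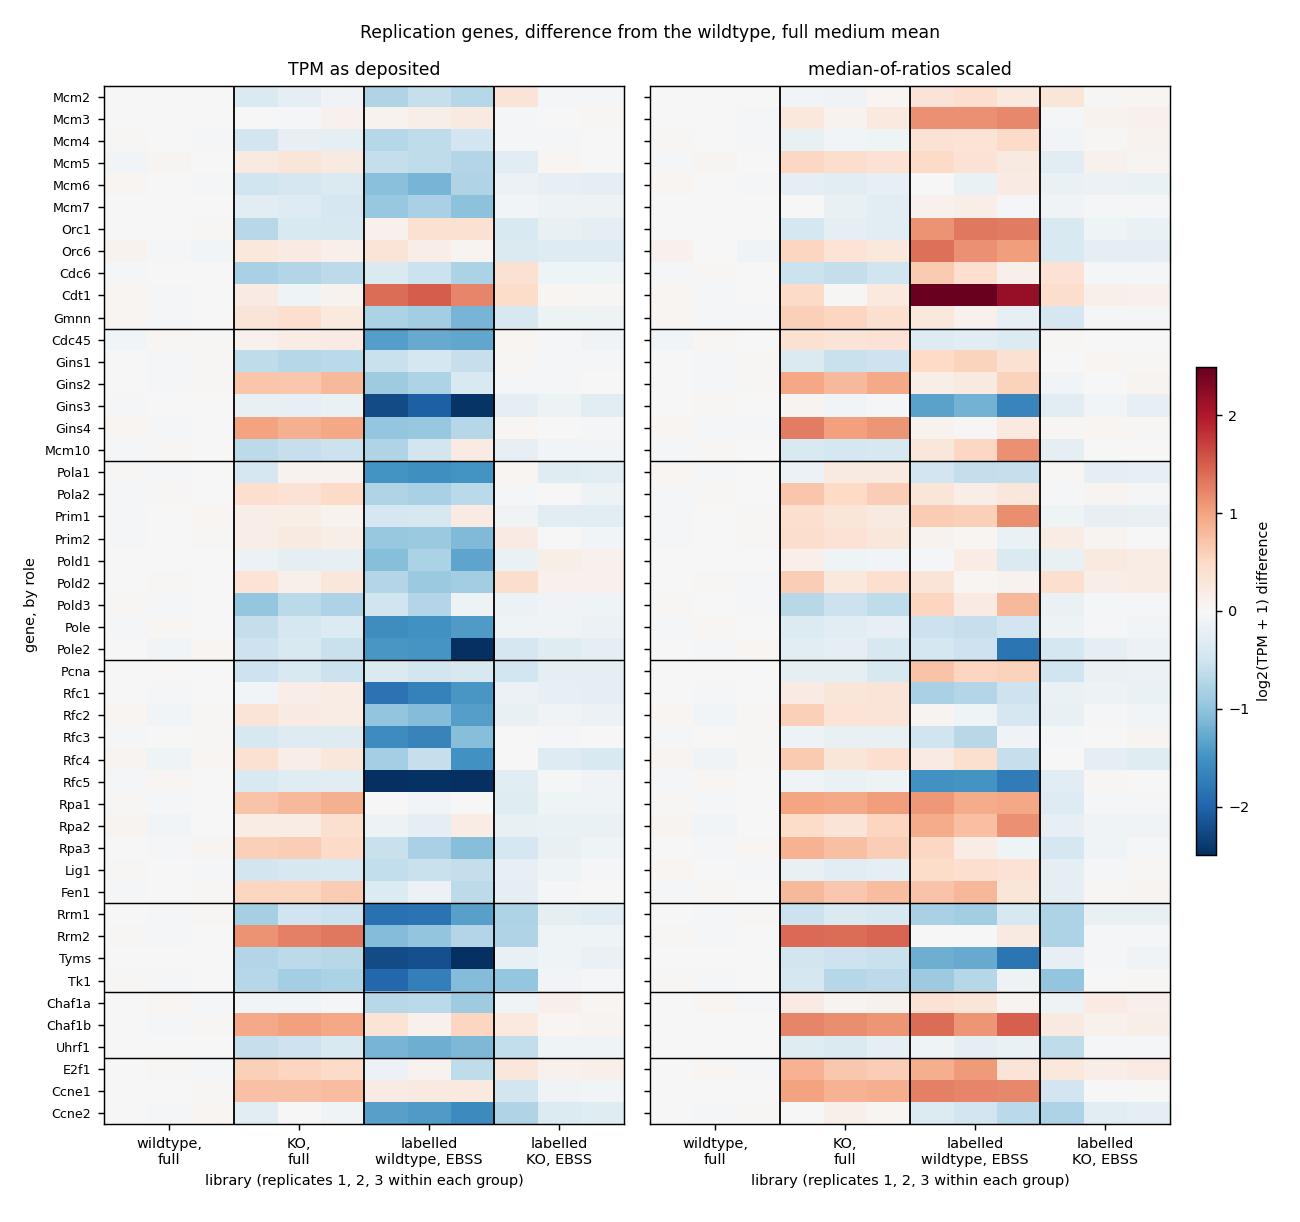
Each row is 1 of the 47 genes, sorted by role, and each column 1 library. Colour gives the difference in log2(TPM + 1) from the mean of the 3 wildtype libraries in full medium, on the deposited scale at left and after median-of-ratios rescaling at right, and saturates at the ends of the colour bar. The EBSS libraries labelled wildtype are mostly below wildtype at left and divided between higher and lower at right, while those labelled KO stay near wildtype.

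Levels of the licensing genes come first. Cdt1, the loader of MCM (chromosome 8, 122568015 to 122573554, GRCm38 and GENCODE vM21 here and below), stood at 93.9, 88.7 and 91.0 TPM in the wildtype and 105, 85.0 and 97.6 TPM in the KO libraries in full medium. In EBSS it stood at 242, 262 and 214 TPM in the EBSS libraries labelled wildtype and 125, 94.7 and 93.7 TPM in those labelled KO. The 3 EBSS libraries labelled wildtype thus lay above all 9 others, as they did rescaled (408, 418 and 336). Mcm7, a subunit of the helicase (chromosome 5, 138164583 to 138172422), stood at 322, 319 and 321 TPM in the wildtype and 266, 256 and 240.1 TPM in the KO libraries in full medium, and at 165, 181 and 157 TPM in the EBSS libraries labelled wildtype and 306, 295 and 294 TPM in those labelled KO. As deposited, KO libraries in full medium lay below wildtype and the EBSS libraries labelled wildtype lowest. Rescaled, Mcm7 was at 259, 257 and 256 in wildtype, 259, 227 and 213 in KO and 279, 289.9 and 247 in those EBSS libraries, which overlapped. Cdc6, the ATPase that acts with ORC in loading (chromosome 11, 98907801 to 98923940), stood at 27.3, 28.2 and 28.0 TPM in the wildtype and 15.5, 16.4 and 17.5 TPM in the KO libraries in full medium, and at 21.3, 19.0 and 15.7 TPM in the EBSS libraries labelled wildtype and 36.4, 25.6 and 25.8 TPM in those labelled KO. The KO libraries in full medium were below wildtype on both scales, and replicate 1 of the group labelled KO, EBSS was above its 2 replicates.

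Orc1, the largest ORC subunit (chromosome 4, 108579423 to 108614833), stood at 15.1, 15.1 and 15.5 TPM in the wildtype and 9.005, 11.5 and 11.4 TPM in the KO libraries in full medium, and at 16.4, 20.1 and 20.1 TPM in the EBSS libraries labelled wildtype and 11.5, 13.4 and 12.8 TPM in those labelled KO. It was lower in every KO than in every wildtype library in full medium on both scales. Orc6, the smallest ORC subunit (chromosome 8, 85299632 to 85308278), stood at 122, 112 and 108 TPM in the wildtype and 138, 132 and 124 TPM in the KO libraries in full medium, and at 143, 128 and 121 TPM in the EBSS libraries labelled wildtype and 88.5, 91.5 and 90.9 TPM in those labelled KO. Its EBSS libraries labelled KO lay below all others, also rescaled, and those labelled wildtype overlapped both groups in full medium as deposited and lay above all others rescaled (241, 204 and 189.7).

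The GINS complex has 4 subunits, and they did not keep in step. Gins4 (chromosome 8, 23226616 to 23237659) stood at 95.1, 90.1 and 91.1 TPM in the wildtype and 185, 170.5 and 180.0 TPM in the KO libraries in full medium, and at 46.3, 47.3 and 55.9 TPM in the EBSS libraries labelled wildtype and 95.9, 91.3 and 89.6 TPM in those labelled KO. Gins2 (chromosome 8, 120578633 to 120589304) stood at 120.2, 118 and 123 TPM in the wildtype and 196, 192 and 211 TPM in the KO libraries in full medium, and at 64.8, 70.4 and 91.9 TPM in the EBSS libraries labelled wildtype and 117, 116 and 119 TPM in those labelled KO. KO libraries in full medium held the highest values of both, also rescaled. Gins1 (chromosome 2, 150905400 to 150931280) stood at 76.0, 73.1 and 77.3 TPM in the wildtype and 48.1, 45.9 and 47.1 TPM in the KO libraries in full medium, and at 51.1, 55.7 and 49.99 TPM in the EBSS libraries labelled wildtype and 76.7, 74.0 and 73.3 TPM in those labelled KO. Gins3 (chromosome 8, 95633453 to 95645060), the subunit with the lowest levels, stood at 17.98, 18.5 and 18.3 TPM in the wildtype and 15.8, 15.7 and 16.2 TPM in the KO libraries in full medium, and at 3.07, 3.69 and 2.53 TPM in the EBSS libraries labelled wildtype and 15.2, 16.6 and 14.8 TPM in those labelled KO. Gins1 was lowest in KO libraries in full medium, and Gins3 in EBSS libraries labelled wildtype, with a gap from 3.69 to 14.8 TPM to the other 9 libraries. Both held rescaled.

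Among polymerase subunits, Pole2, an accessory subunit of polymerase epsilon (chromosome 12, 69201773 to 69228195), stood at 44.6, 42.4 and 46.1 TPM in the wildtype and 30.5, 33.6 and 29.99 TPM in the KO libraries in full medium, and at 15.5, 15.3 and 5.91 TPM in the EBSS libraries labelled wildtype and 32.9, 35.7 and 38.1 TPM in those labelled KO. The wildtype libraries in full medium were highest on both scales, and replicate 3 of the group labelled wildtype, EBSS was well below its replicates. Prim1, the catalytic subunit of primase (chromosome 10, 128015168 to 128030037), stood at 89.4, 92.4 and 95.4 TPM in the wildtype and 102, 103 and 97.8 TPM in the KO libraries in full medium, and at 68.9, 70.1 and 106 TPM in the EBSS libraries labelled wildtype and 86.3, 76.4 and 76.8 TPM in those labelled KO. The same replicate 3 was above its replicates, and rescaled the 3 libraries of that group lay above all others (116, 112 and 167). Pold3, an accessory subunit of polymerase delta (chromosome 7, 100082111 to 100121565), stood at 27.3, 26.2 and 26.3 TPM in the wildtype and 13.1, 16.3 and 15.1 TPM in the KO libraries in full medium, and at 18.6, 15.5 and 24.4 TPM in the EBSS libraries labelled wildtype and 23.8, 24.9 and 24.5 TPM in those labelled KO. The KO libraries in full medium did not overlap the wildtype or the labelled KO, EBSS libraries on either scale.

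Pcna, the sliding clamp (chromosome 2, 132249162 to 132253314), was the most abundant gene of its role at 839, 831 and 845 TPM in the wildtype and 585, 643 and 577 TPM in the KO libraries in full medium, and at 653, 613 and 637 TPM in the EBSS libraries labelled wildtype and 602, 713 and 713 TPM in those labelled KO. As deposited, wildtype libraries in full medium lay above all others. Rescaled, the EBSS libraries labelled wildtype did, at 1100.4, 979.7 and 1002 against 674, 671 and 674 in wildtype in full medium. Rfc5, a subunit of the clamp loader (chromosome 5, 117378103 to 117389047), stood at 108, 114 and 110.1 TPM in the wildtype and 84.8, 90.2 and 91.9 TPM in the KO libraries in full medium, and at 18.2, 19.3 and 16.3 TPM in the EBSS libraries labelled wildtype and 92.8, 107 and 104 TPM in those labelled KO. The EBSS libraries labelled wildtype lay far below the remaining 9, which lay between 84.8 and 114 TPM, and did so rescaled (30.7, 30.9 and 25.6). Rpa1, the large subunit of the single-strand binding protein (chromosome 11, 75298166 to 75348324), stood at 118, 113 and 118 TPM in the wildtype and 190.3, 204 and 217 TPM in the KO libraries in full medium, and at 117, 111 and 116 TPM in the EBSS libraries labelled wildtype and 94.1, 108 and 107 TPM in those labelled KO. KO libraries in full medium were highest as deposited, but rescaled their 185, 180.2 and 192 overlapped the 198, 177 and 182 of the EBSS libraries labelled wildtype.

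Ribonucleotide reductase makes deoxyribonucleotides from a large subunit, Rrm1, and a small one, Rrm2. Rrm2 (chromosome 12, 24708241 to 24714146) stood at 220.1, 210.1 and 218 TPM in the wildtype and 475, 518 and 537 TPM in the KO libraries in full medium, and at 102, 109 and 129.8 TPM in the EBSS libraries labelled wildtype and 127, 201 and 200.3 TPM in those labelled KO. KO libraries in full medium lay above all others on both scales, and replicate 1 of the group labelled KO, EBSS below its replicates. Tyms, thymidylate synthase (chromosome 5, 30058202 to 30073617), stood at 58.9, 58.5 and 58.3 TPM in the wildtype and 34.9, 36.8 and 35.6 TPM in the KO libraries in full medium, and at 11.6, 12.0 and 7.94 TPM in the EBSS libraries labelled wildtype and 51.1, 54.0 and 51.9 TPM in those labelled KO. Tk1, the thymidine kinase of dividing cells (chromosome 11, 117815526 to 117826092), stood at 207, 197 and 204 TPM in the wildtype and 123, 112 and 116 TPM in the KO libraries in full medium, and at 51.1, 61.6 and 94.8 TPM in the EBSS libraries labelled wildtype and 104, 194 and 195 TPM in those labelled KO. For both genes the wildtype libraries in full medium were highest and the EBSS libraries labelled wildtype lowest as deposited, which held rescaled for Tyms and not for Tk1 (86.1, 98.5 and 149 in those EBSS libraries and 119.7, 98.9 and 103 in KO libraries in full medium). Tk1 was again low in replicate 1 of the group labelled KO, EBSS.

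Chaf1b, the middle subunit of the histone chaperone CAF-1 (chromosome 16, 93883901 to 93906115), stood at 83.6, 82.6 and 85.4 TPM in the wildtype and 162, 172 and 166 TPM in the KO libraries in full medium, and at 106, 90.7 and 121 TPM in the EBSS libraries labelled wildtype and 99.3, 86.7 and 88.1 TPM in those labelled KO. As deposited, KO libraries in full medium lay above all others, and rescaled their 158, 152 and 147 overlapped the 179, 145 and 191 of the EBSS libraries labelled wildtype. Uhrf1, which guides maintenance DNA methylation to new strands (chromosome 17, 56303321 to 56323486), stood at 201, 198 and 198 TPM in the wildtype and 133, 139.6 and 152 TPM in the KO libraries in full medium, and at 88.3, 85.1 and 90.9 TPM in the EBSS libraries labelled wildtype and 129, 185 and 184 TPM in those labelled KO. As deposited, Uhrf1 was highest in wildtype libraries in full medium and lowest in EBSS libraries labelled wildtype, which rescaled (149, 136 and 143) were not the lowest. Of the G1/S regulators, E2f1 (chromosome 2, 154559407 to 154569892), a transcription factor of S-phase genes, stood at 93.2, 94.9 and 90.1 TPM in the wildtype and 140.3, 135 and 129.8 TPM in the KO libraries in full medium, and at 83.4, 98.1 and 59.3 TPM in the EBSS libraries labelled wildtype and 113, 99.2 and 101 TPM in those labelled KO. E2f1 was highest in KO libraries in full medium as deposited, and rescaled their 137, 119.5 and 115 overlapped the 141, 157 and 93.3 of the EBSS libraries labelled wildtype.

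Ccne1 and Ccne2 encode the cyclins E, which activate CDK2. Ccne1 (chromosome 7, 38097984 to 38107534) stood at 56.8, 57.5 and 58.5 TPM in the wildtype and 96.3, 96.9 and 98.9 TPM in the KO libraries in full medium, and at 66.7, 67.8 and 68.4 TPM in the EBSS libraries labelled wildtype and 41.4, 54.4 and 55.1 TPM in those labelled KO. Ccne2 (chromosome 4, 11191351 to 11204779) stood at 35.4, 34.0 and 36.4 TPM in the wildtype and 29.0, 34.9 and 32.9 TPM in the KO libraries in full medium, and at 13.1, 12.6 and 11.1 TPM in the EBSS libraries labelled wildtype and 20.5, 27.4 and 28.3 TPM in those labelled KO. Ccne1 was highest in KO libraries in full medium as deposited, but rescaled in the EBSS libraries labelled wildtype (112, 108 and 107 against 93.7, 85.6 and 87.6). Ccne2 did not separate KO from wildtype in full medium, and the EBSS libraries labelled wildtype were lowest as deposited but overlapped those labelled KO rescaled.

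**Figure D2:**
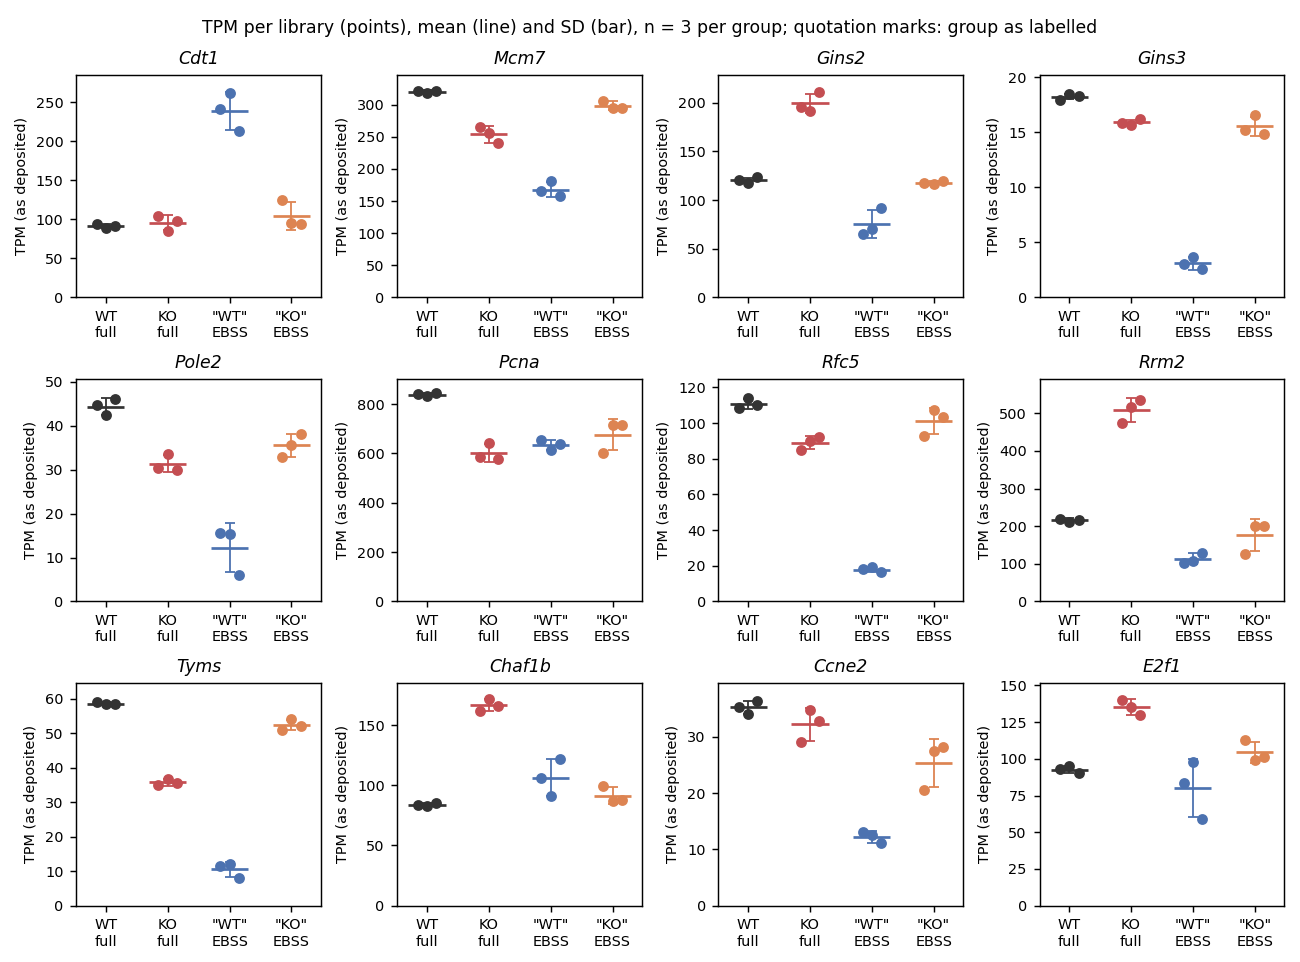
Deposited TPM (vertical axes from 0) of 12 genes in each library, by group. Points are libraries, horizontal lines the means of 3 and bars ± 1 SD. Cdt1 is high, and Rfc5, Tyms and Gins3 are low, in the 3 EBSS libraries labelled wildtype, whereas Rrm2, Chaf1b and Gins2 are highest, on this scale, in the KO libraries in full medium.

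The comparison that the labels and Rbbp5 both support is KO against wildtype in full medium, which asks how the replication genes stand after loss of Rbbp5 in fed cells. The genes did not move as a block. Subunits of the same complex went opposite ways on both scales: Rrm2 rose and Rrm1 fell, and Gins2 and Gins4 rose and Gins1 fell. Chaf1b rose with its partner Chaf1a at a log2 change of −0.06 (adjusted p = 0.58). On the deposited scale 12 of 47 genes rose and 17 fell, where 20.1% of all tested genes rose and 35.8% fell. Rescaled, 20 rose and 10 fell, against 26.7% and 27% of all genes. The median of the 47 was −0.06 beside −0.17 for all genes, and 0.13 beside 0.01 rescaled. All of these calls come from limma with Benjamini-Hochberg adjustment over the 12653 tested genes at an adjusted p under 0.05, and log2 changes are of log2(TPM + 1), which understates changes of low genes.

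On both scales 12 genes rose (Mcm5, Gmnn, Gins2, Gins4, Pola2, Rpa1, Rpa3, Fen1, Rrm2, Chaf1b, E2f1 and Ccne1) and 10 fell (Mcm6, Orc1, Cdc6, Gins1, Pold3, Pole, Pcna, Lig1, Rrm1 and Tyms), against 19.9% and 27% of all genes, and 0 were called in opposite directions. With only these 6 libraries fitted 19 rose as deposited, and the rescaled count of falls was 5, 4 and 6 without wildtype replicate 1, 2 or 3 and 6 without KO replicate 3. Beside these changes, the summed fibroblast markers were lower in KO libraries, with 8 of 10 called lower and 0 higher on both scales. Of all genes 27% were lower and 19.9% higher on both scales. Vim, the most abundant marker, went the other way as deposited, at 2996 to 3235 TPM in KO and 2789 to 2884 TPM in wildtype libraries. The part of the markers in the result was not tested.

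The largest rise was that of Rrm2, from 216 ± 5.25 to 509.8 ± 31.9 TPM (SD, n = 3), a 2.35-fold increase (log2 change 1.23, SE 0.16, adjusted p = 6.0e-05). Rrm1 went from 137 ± 3.95 to 89.5 ± 10.7 TPM (log2 change −0.62, adjusted p = 0.0082), and Tyms from 58.6 ± 0.321 to 35.8 ± 0.972 TPM (−0.70, adjusted p = 6.8e-04). Rescaled, the changes of the 3 were 1.42, −0.43 and −0.51, all still called. Of the 4 nucleotide genes 1 rose and 3 fell as deposited, and 1 and 2 rescaled. Of all tested genes 20.1% rose and 35.8% fell as deposited, and 26.7% and 27% rescaled. Tk1 went from 203 ± 5.06 to 117 ± 5.56 TPM (log2 change −0.79, SE 0.25, adjusted p = 0.018), but was not called rescaled (−0.60, adjusted p = 0.071) or without KO full medium replicate 2 (adjusted p = 0.051).

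Chaf1b rose 1.97-fold, from 83.9 ± 1.43 to 166 ± 4.99 TPM (log2 change 0.98, SE 0.10, adjusted p = 1.0e-05), and by 1.16 rescaled. Uhrf1 changed by −0.49 (adjusted p = 0.0049) and by −0.31 rescaled (adjusted p = 0.08), so that its fall was called on the deposited scale only. Of the 3 G1/S genes, Ccne1 rose by 0.75 (SE 0.10, adjusted p = 7.8e-05) and E2f1 by 0.54 (SE 0.14, adjusted p = 0.008), while Ccne2 changed by −0.13 (adjusted p = 0.42). The 2 rises were called rescaled as well, at 0.93 and 0.72.

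Among the 6 helicase activators, Gins4 rose 1.93-fold, from 92.1 ± 2.67 to 178 ± 7.32 TPM (log2 change 0.95, SE 0.08, adjusted p = 3.1e-06), and Gins2 rose by 0.72 (adjusted p = 1.9e-04). Gins1 fell from 75.5 ± 2.12 to 47.0 ± 1.08 TPM (log2 change −0.67, SE 0.07, adjusted p = 1.1e-05), and Gins3 changed by −0.19 (adjusted p = 0.2). Rescaled, the 4 changes were 1.13, 0.91, −0.49 and −0.01. Mcm10, which assists helicase activation, fell by 0.59 on the deposited log2 scale (adjusted p = 0.018) but was not called rescaled (adjusted p = 0.073).

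Of the 11 licensing genes, 2 rose (Mcm5 and Gmnn, which encodes geminin) and 5 fell (Mcm4, Mcm6, Mcm7, Orc1 and Cdc6). Rescaled, 4 rose and 3 fell. The shares of all tested genes were 20.1% higher and 35.8% lower as deposited, and 26.7% and 27% rescaled. Cdc6 had the largest fall, from 27.9 ± 0.474 to 16.4 ± 0.987 TPM (log2 change −0.73, SE 0.15, adjusted p = 0.0014, −0.55 rescaled). The 6 MCM subunits, which work as 1 ring, spanned −0.43 for Mcm6 to 0.25 for Mcm5. Mcm7, at −0.34, fell on the deposited scale and was not called rescaled (−0.15, adjusted p = 0.15). Cdt1 changed by 0.07 (adjusted p = 0.67).

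Of the 9 polymerase and primase subunits, Pola2 rose (log2 change 0.42) and Pold3 and Pole fell, and rescaled 3 rose and 2 fell. Among all tested genes 20.1% rose and 35.8% fell as deposited, and 26.7% and 27% rescaled. Pold3 fell from 26.6 ± 0.613 to 14.9 ± 1.61 TPM (log2 change −0.80, SE 0.14, adjusted p = 6.2e-04, −0.62 rescaled). Pole, the catalytic subunit of polymerase epsilon, changed by −0.45 deposited and −0.27 rescaled. Prim1 at 0.13 (adjusted p = 0.46) and Pole2 at −0.49 (adjusted p = 0.14) did not pass the test.

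In the clamp and lagging-strand group, 3 of 11 rose (Rpa1, Rpa3 and Fen1) and 4 fell (Pcna, Rfc3, Rfc5 and Lig1), and rescaled 6 rose and 2 fell. The shares over all tested genes were 20.1% and 35.8%, and 26.7% and 27% rescaled. Rpa1 rose from 116 ± 2.96 to 204 ± 13.3 TPM (log2 change 0.80, SE 0.08, adjusted p = 6.2e-06). Rpa3, its small partner, rose by 0.56, and Fen1, which trims the flaps between Okazaki fragments, by 0.57. Pcna fell from 838 ± 7.00 to 602 ± 35.9 TPM (log2 change −0.48, SE 0.08, adjusted p = 3.5e-04), and Lig1, which seals the fragments, by 0.42 on the log2 scale. On the rescaled values these 5 changes were 0.99, 0.74, 0.75, −0.29 and −0.23, all called. Rfc5 changed by −0.32 deposited (adjusted p = 0.0078) and −0.13 rescaled (adjusted p = 0.27).

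Read as a description, the 9 genes with E2F letters in the promoter counted 1 higher and 6 lower, with a median of −0.35, and the 29 without counted 8 higher and 8 lower, with a median of 0.09. Rescaled, these were 1 and 3 with a median of −0.17, and 14 and 5 with a median of 0.27. Of all tested genes 20.1% rose and 35.8% fell as deposited, and 26.7% and 27% rescaled. Mcm5 was the 1 of the 9 that rose. The order of the 2 medians differed between comparisons. With and without the letters they were, as deposited, 0.83 and 0.57 for labelled KO against labelled wildtype in EBSS. For EBSS against full medium they were −0.98 and −0.68 in labelled wildtype, and 0.23 and −0.03 in labelled KO. They were −0.18 and −0.13 for labelled KO EBSS against wildtype full medium. For labelled wildtype EBSS against KO full medium they were −0.68 and −0.80.

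The rest of the pathway was read from 83 other genes of replication, nucleotide supply, chromatin copying and the E2F and RB network. In KO against wildtype in full medium 14 rose and 31 fell, where 20.1% of all tested genes rose and 35.8% fell. Rescaled, 19 rose and 18 fell, against 26.7% and 27% of all genes. The same shares stand beside the counts of the shorter lists below. Of 32 other replication factors 5 rose and 11 fell. Pclaf, the PCNA-associated factor, fell the most, from 125, 129 and 133 TPM to 30.8, 37.5 and 36.2 TPM (log2 change −1.86, SE 0.14, adjusted p = 1.1e-06), and Pold4, the smallest subunit of polymerase delta, rose the most (log2 change 1.20, SE 0.15, adjusted p = 4.1e-05). Of 15 nucleotide genes 4 rose, led by Dctpp1 at 0.83, and 4 fell, led by Dut, the dUTPase, at −1.05. Of 9 chromatin genes 2 rose and 3 fell. Dnmt1, the maintenance DNA methyltransferase that works with Uhrf1, stood at 184, 193 and 188 TPM in the wildtype and 78.1, 93.1 and 98.2 TPM in the KO libraries in full medium (log2 change −1.06, SE 0.11, adjusted p = 1.3e-05), and Asf1b, a histone chaperone, rose by 0.86.

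Of 27 genes of the E2F, RB and G1/S list 3 rose and 13 fell, against 20.1% and 35.8% of all tested genes. Rescaled, 5 rose and 8 fell, against 26.7% and 27%. Cdkn1a, the p21 inhibitor of cyclin-dependent kinases, stood at 131, 129.6 and 137 TPM in the wildtype and 255, 298 and 277 TPM in the KO libraries in full medium (log2 change 1.06, SE 0.14, adjusted p = 6.7e-05). Ccnd2, a cyclin D, had the largest fall (log2 change −1.59, SE 0.22, adjusted p = 9.4e-05). Ccnd1 changed by −0.38 (adjusted p = 0.24) and Myc by 0.01 (adjusted p = 0.98). Rescaled, Cdkn1a changed by 1.24, Ccnd2 by −1.40, Pclaf by −1.68, Pold4 by 1.39 and Dnmt1 by −0.88. Of 22 mitosis genes 2 rose and 6 fell, and rescaled 4 rose and 1 fell, beside the same shares of all genes.

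EBSS against full medium, among libraries labelled wildtype, asks what starvation does to these transcripts, and carries both the doubt on the labels and the composition shift. On both scales, 4 genes were higher (Mcm3, Orc6, Cdt1 and Chaf1b) and 11 lower (Cdc45, Gins3, Pola1, Pole, Pole2, Rfc1, Rfc3, Rfc5, Rrm1, Tyms and Ccne2), against 9.25% and 35.4% of all tested genes. Another 11 were called lower as deposited and higher rescaled (Mcm2, Mcm4, Mcm5, Cdc6, Gins1, Gins2, Pola2, Pold3, Pcna, Lig1 and Fen1), against 9.37% of all genes. By scale, 4 were higher and 36 lower as deposited, against 9.25% and 71.8% of all genes, and 22 higher and 11 lower rescaled, against 30.7% and 35.4%. The median of the 47 was −0.81 beside −0.94 for all genes, and 0.19 beside −0.09 rescaled. Without replicate 3 of the group labelled wildtype, EBSS the counts were 3 and 38 as deposited and 25 and 12 rescaled. The deposited count of 4 was 2 without wildtype full medium replicate 2 or 3, labelled wildtype EBSS replicate 2 or labelled KO EBSS replicate 2.

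Cdt1 was the largest increase. It went from 91.2 ± 2.58 to 239 ± 24.0 TPM (SD, n = 3), 2.60-fold (log2 change 1.38, SE 0.12, adjusted p = 1.2e-06), and by 2.38 rescaled. Its inhibitor Gmnn went from 71.9 ± 2.25 to 37.2 ± 4.99 TPM (−0.94, adjusted p = 1.1e-05, and 0.05 rescaled, adjusted p = 0.74). Chaf1b was higher by 0.33 (SE 0.10) and 1.33 (SE 0.09) deposited and rescaled. Orc6 was higher by 0.19 (SE 0.08) and 1.19 (SE 0.10), with an adjusted p of 0.049 as deposited that was lost in 10 alternatives (adjusted p 0.0545 to 0.200).

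The largest decreases crossed the roles. Rfc5 went from 111 ± 2.84 to 17.9 ± 1.53 TPM, 5.92-fold lower (log2 change −2.57, SE 0.08, adjusted p = 3.3e-09). Tyms went from 58.6 ± 0.321 to 10.5 ± 2.24 TPM (log2 change −2.39, SE 0.13, adjusted p = 3.1e-08), and Gins3 from 18.3 ± 0.245 to 3.10 ± 0.579 TPM (log2 change −2.24, SE 0.12, adjusted p = 3.1e-08). Rescaled, the 3 were at −1.59, −1.43 and −1.39 on the log2 scale (adjusted p = 1.6e-07, 6.1e-06 and 3.3e-06). These genes belong to the clamp loader, thymidylate synthesis and the helicase, and other subunits of the same complexes differed from them: Rfc2 was at −1.15 deposited and −0.15 rescaled, and Gins2 at −0.68 deposited and 0.32 rescaled.

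Of the 9 polymerase and primase subunits 8 were lower and 0 higher, where 71.8% of all tested genes were lower and 9.25% higher. Rescaled, 3 were lower and 3 higher, against 35.4% and 30.7% of all genes. Pole2 was at −1.88 deposited and −0.93 rescaled, Pola1, the catalytic subunit of polymerase alpha, at −1.504 deposited and −0.55 rescaled, and Pole at −1.49 deposited and −0.54 rescaled, all called. In the licensing group 7 of 11 were lower and 3 higher as deposited, but 0 lower and 8 higher rescaled, beside the same shares. Of the nucleotide genes, Rrm1 (−1.69 deposited and −0.69 rescaled) and Tyms were lower on both scales. Rrm2 (−0.93) and Tk1 (−1.59) were called lower as deposited only. Rescaled, Rrm2 was at 0.07 (adjusted p = 0.72) and Tk1 at −0.58 (adjusted p = 0.067). Pcna, at −0.40 deposited and 0.61 rescaled, was called in opposite directions.

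Of the 83 other pathway genes 3 were higher and 70 lower as deposited, and 23 and 36 rescaled. Of all tested genes 9.25% were higher and 71.8% lower as deposited, and 30.7% and 35.4% rescaled. Cdc7, the kinase that triggers origins with Dbf4, was at −2.57 deposited and −1.66 rescaled, Ctps, which makes CTP, at −2.497 deposited and −1.51 rescaled, Dnmt1 at −2.25 deposited and −1.26 rescaled and E2f8, a repressor of the E2F family, at −2.92 deposited and −2.04 rescaled. Nasp, a carrier of histones, was the largest increase of its list (0.84 deposited and 1.85 rescaled). Cdkn1a stood at 305, 315 and 391 TPM in the EBSS libraries labelled wildtype (1.33 deposited and 2.34 rescaled) and Ccnd1 at 15.1, 21.2 and 20.4 TPM against 126, 116 and 120.4 TPM in full medium (−2.63 deposited and −1.65 rescaled). Myc was at −0.58 (adjusted p = 0.012) as deposited and 0.42 (adjusted p = 0.054) rescaled. All 22 mitosis genes were lower as deposited, with a median of −1.51, and rescaled 16 were lower and 2 higher, with a median of −0.53. The same shares of all tested genes apply here, and the medians over all tested genes were −0.94 and −0.09.

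**Figure D3:**
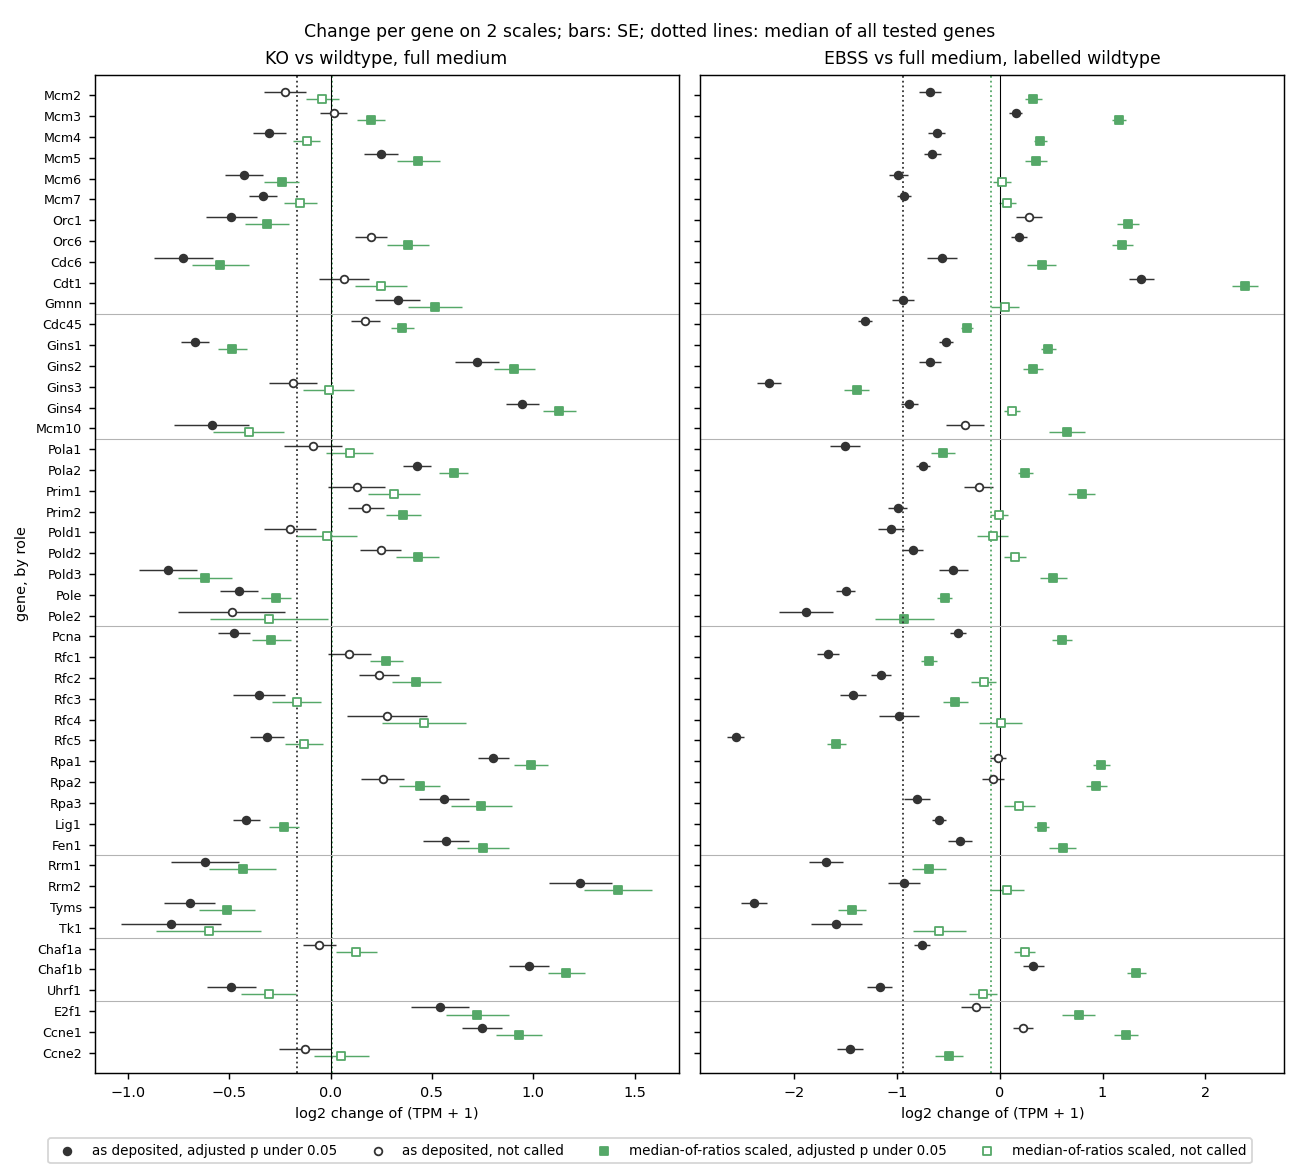
Log2 changes of the 47 genes, by role, with SE bars. The 2 panels show KO against wildtype in full medium, and EBSS against full medium for libraries labelled wildtype. Each gene has its change on the deposited and on the rescaled values, and dotted lines mark the median of all tested genes, −0.17 and 0.01 in the first panel and −0.94 and −0.09 in the second. Rrm2, Chaf1b and Gins4 lead the rises of the first panel, and Cdt1 stands alone at the top of the second.

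The EBSS libraries labelled KO were set against wildtype libraries in full medium, from which they differed by 0.01 in Rbbp5. None of the 47 genes was called in either direction on either scale, against 0.0869% higher and 0.0474% lower of all tested genes (0.079% and 0.0316% rescaled, and 0.0632% and 0.0316% on both scales). As deposited 6 of the 47 had an unadjusted p under 0.05, and rescaled 5. Changes ran from −0.47 for Ccne2 (adjusted p = 0.21) to 0.22 for Pold2, with a median of −0.12 beside −0.03 for all genes. Of the 47, 36 were negative (31 rescaled), a count with no share of all tested genes beside it. In 4 of the 47, replicate 1 of these EBSS libraries lay 0.5 log2 or more below the mean of the other 2 as deposited. It lay that far above in 0. All 95% intervals lay within 1 log2 unit of no change, with SEs from 0.065 to 0.265. A p that misses the threshold does not show that the levels were equal. Tyms, for example, stood at 58.6 ± 0.321 TPM in wildtype in full medium and 52.3 ± 1.51 TPM here, Rrm2 at 216 ± 5.25 and 176 ± 42.5, Pcna at 838 ± 7.00 and 676 ± 64.1, and Rbbp5 changed by 0.01. Over all genes 17 were called (14 rescaled), and 1382 (1350 rescaled) had an unadjusted p under 0.05. Without replicate 3 of the group labelled wildtype, EBSS, which enters only through the shared spread, 1 gene was called lower.

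EBSS against full medium, among libraries labelled KO, shares its full-medium libraries with the first comparison, so its values are set beside those rather than read as separate evidence. Here 11 genes were higher and 19 lower, against 33.3% and 20.9% of all tested genes, and rescaled 5 and 21, against 26.2% and 25.8%. The median was −0.03 beside 0.13 for all genes, and −0.17 beside 0.00 rescaled. On both scales 5 were higher (Cdc6, Gins1, Pold3, Pole and Tyms) and 19 lower, against 26.2% and 20.6% of all genes. The 19 were Mcm5, Orc6, Gmnn, Cdc45, Gins2, Gins4, Pola2, Rfc1, Rfc2, Rfc4, Rpa1, Rpa2, Rpa3, Fen1, Rrm2, Chaf1b, E2f1, Ccne1 and Ccne2. Without KO full medium replicate 1 the higher count was 7, and without replicate 1 of the group labelled KO, EBSS it was 13, and 9 rescaled. The rescaled count of 5 was 3 without any 1 of the 6 full medium libraries or replicate 2 or 3 of that group.

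Rrm2 went from 509.8 ± 31.9 to 176 ± 42.5 TPM (log2 change −1.56, SE 0.16, adjusted p = 1.1e-05), beside a rise of 1.23 in KO against wildtype. Rpa1 was at −0.98 (SE 0.08, adjusted p = 1.7e-06) beside 0.80, Ccne1 at −0.95 (SE 0.10, adjusted p = 1.4e-05) beside 0.75, Gins4 at −0.94 beside 0.95 and Chaf1b at −0.86 beside 0.98. In the other direction, Cdc6 was at 0.78 (SE 0.15, adjusted p = 9.5e-04) beside −0.73, Pold3 at 0.69 (SE 0.14, adjusted p = 0.0018) beside −0.80 and Gins1 at 0.66 (SE 0.07, adjusted p = 1.4e-05) beside −0.67. None of these genes was called between the same EBSS libraries and wildtype libraries in full medium.

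By role, 7 of the 11 clamp and lagging-strand genes were lower and 2 higher, and all 3 G1/S genes were lower: Ccne1, E2f1 at −0.37 and Ccne2 at −0.34. Of the 83 other pathway genes 23 were higher and 20 lower, and rescaled 16 and 25. All these counts stand beside 33.3% higher and 20.9% lower of all tested genes, and 26.2% and 25.8% rescaled. Pclaf was at 1.70, Dut at 1.00, Dnmt1 at 0.97 and Ccnd2 at 1.80, and Pold4 at −1.12, Dctpp1 at −1.01, Asf1b at −1.21, Ccnd3 at −1.05 and Cdkn1a at −0.95, all called.

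**Figure D4:**
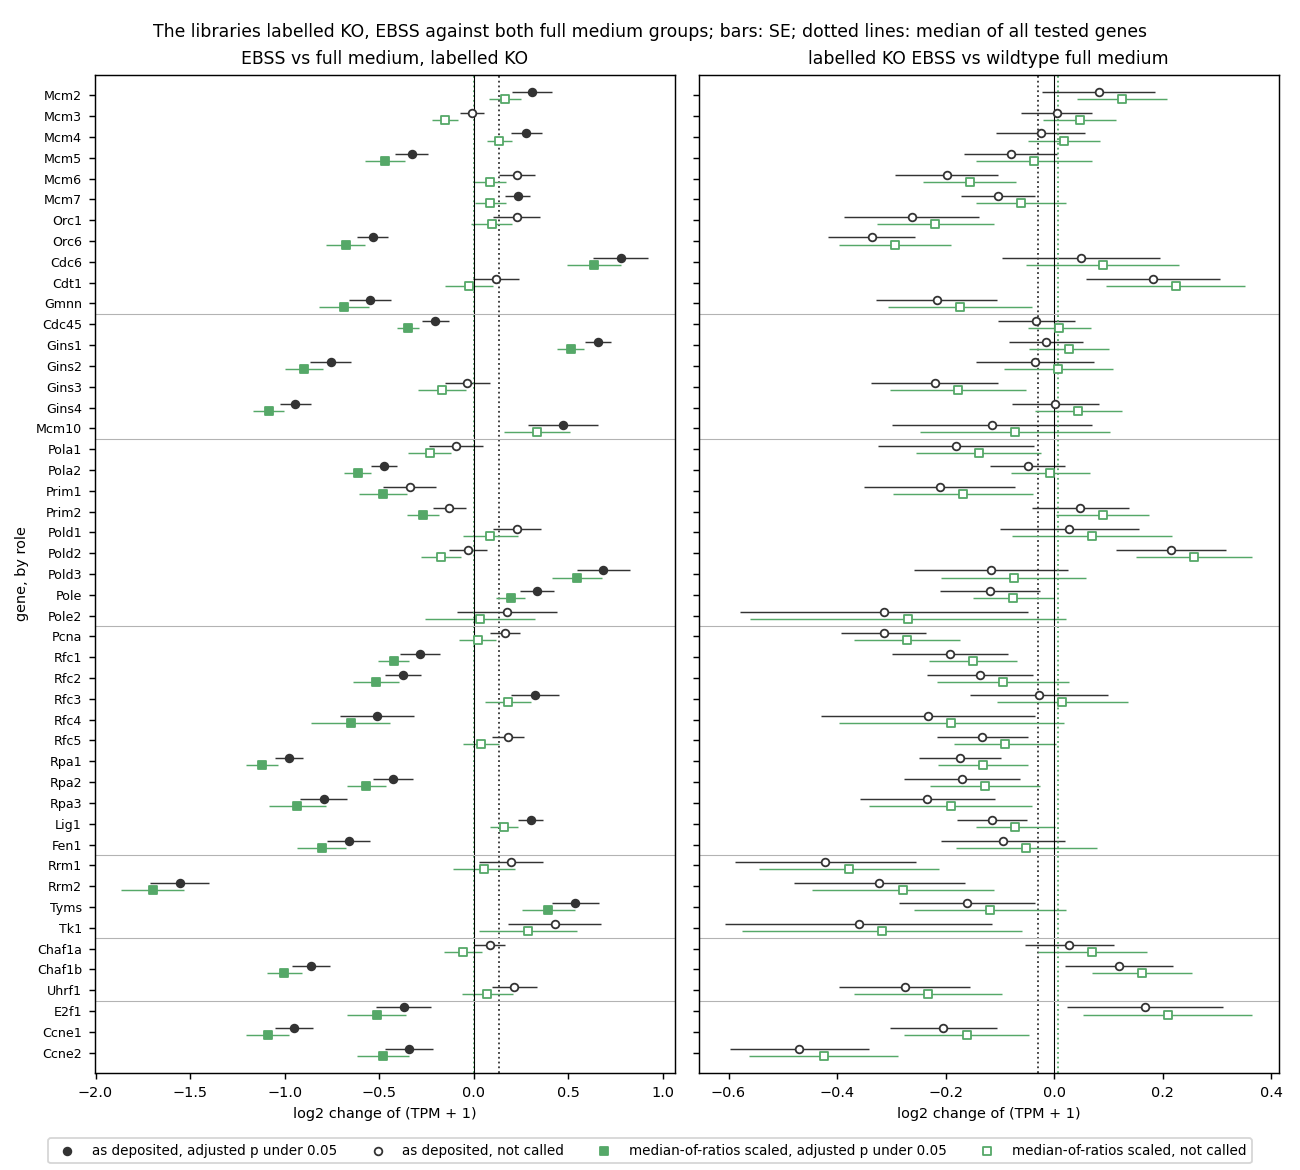
Log2 changes of the 47 genes, by role, with SE bars on the deposited and rescaled values, and dotted lines at the median of all tested genes. The 2 panels show EBSS against full medium for libraries labelled KO, and EBSS libraries labelled KO against wildtype libraries in full medium. In the second panel no gene was called and all lie between −0.47 and 0.22 as deposited.

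Within EBSS, libraries labelled KO against those labelled wildtype gave 36 genes higher and 5 lower, against 71.9% and 8.58% of all tested genes, and rescaled 8 and 21, against 34.6% and 29.2%. The median was 0.72 beside 0.91 for all genes, and −0.23 beside 0.09 rescaled. On both scales 8 were higher (Cdc45, Gins3, Pola1, Pole, Rfc1, Rfc3, Rfc5 and Tyms) and 5 lower (Mcm3, Orc1, Orc6, Cdt1 and Ccne1), against 34.6% and 8.58% of all genes, and 10 were called in opposite directions, against 8.51%. Rfc5 was higher by 2.43 (SE 0.08, adjusted p = 4.4e-09), Tyms by 2.23 (SE 0.13) and Gins3 by 2.02 (SE 0.12), and rescaled by 1.497, 1.32 and 1.21. Cdt1 was at −1.19 (SE 0.12, adjusted p = 4.0e-06), Orc1 at −0.55 (adjusted p = 0.0017) and Orc6 at −0.52 (adjusted p = 9.1e-05), and rescaled at −2.16, −1.47 and −1.48. The labelled KO libraries here are those that showed no loss of Rbbp5.

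The EBSS libraries labelled wildtype were also set against KO libraries in full medium, from which they differed in Rbbp5 on both scales, by 0.55 and 1.32 as given above. There 3 genes were higher and 38 lower, against 11.6% and 63.5% of all tested genes, and rescaled 17 and 17, against 30% and 33.2%. On both scales 3 were higher and 17 lower, against 11.6% and 33.2% of all genes, and 8 were called in opposite directions, against 4.88%. Without replicate 1 of the group labelled KO, EBSS, which enters only through the shared spread, 5 were higher. The 3 higher ones, Cdt1 at 1.31 (SE 0.12, adjusted p = 2.2e-06), Orc1 at 0.77 (adjusted p = 1.5e-04) and Pold3 at 0.35 (adjusted p = 0.041), were so on both scales, but Pold3 lost its call in 12 alternatives (adjusted p 0.0532 to 0.136). Rfc5 was at −2.25, Rrm2 at −2.17 and Gins3 at −2.05, and rescaled at −1.46, −1.34 and −1.38. Cdt1 high with Rfc5 and Gins3 low therefore set these 3 libraries apart from each of the other 3 groups.

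An interaction term tested whether the labelled KO minus wildtype difference was the same in EBSS as in full medium. As deposited it was called above 0 for 31 genes and below 0 for 7, against 64.2% and 12.5% of all tested genes, and rescaled 6 and 21, against 34% and 32.8%. On both scales 6 were higher (Gins3, Pole, Rfc3, Rfc5, Rrm1 and Tyms) and 7 lower (Orc6, Cdt1, Rpa1, Rpa2, Rrm2, Chaf1b and Ccne1), against 34% and 12.5% of all genes, and 6 were called in opposite directions, against 5.37%.

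Ratios of 2 genes within a library do not depend on the scale. They were taken for 8 pairs of partners, chosen after their values were seen, and compared between the 6 pairs of groups. A two-sided exact permutation test of 3 against 3 cannot go below p = 0.1, so none of these 48 comparisons could pass 0.05, and the ratios are a description.

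Cdt1 over its inhibitor Gmnn was 1.26, 1.26 and 1.28 in wildtype and 1.16, 0.887 and 1.14 in KO libraries in full medium, 5.90, 6.70 and 6.78 in EBSS libraries labelled wildtype and 2.32, 1.43 and 1.43 in those labelled KO. It was thus highest in the EBSS libraries labelled wildtype and lowest in KO libraries in full medium. Rrm2 over Rrm1, the subunits of ribonucleotide reductase, was 1.60, 1.57 and 1.54 in wildtype and 6.13, 5.32 and 5.72 in KO libraries in full medium, 2.73, 2.91 and 2.43 in EBSS libraries labelled wildtype and 1.58, 1.74 and 1.75 in those labelled KO, which made KO libraries in full medium highest. Its wildtype and KO means in full medium were 1.57 ± 0.0291 and 5.72 ± 0.409 (SD, n = 3 each).

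Gins4 over Gins1 was 1.25, 1.23 and 1.18 in wildtype and 3.84, 3.71 and 3.82 in KO libraries in full medium, 0.907, 0.849 and 1.12 in EBSS libraries labelled wildtype and 1.25, 1.23 and 1.22 in those labelled KO. Gins2 over Gins3 was 6.69, 6.39 and 6.73 in wildtype and 12.4, 12.2 and 13.0 in KO libraries in full medium, 21.1, 19.1 and 36.3 in EBSS libraries labelled wildtype and 7.67, 7.03 and 8.05 in those labelled KO. The first ratio was therefore highest in KO libraries in full medium and the second in EBSS libraries labelled wildtype. There replicate 3 was far above its replicates, and Gins3 stood at only 3.07, 3.69 and 2.53 TPM. Both are ratios of transcript levels, and the balance of the proteins was not tested. Chaf1b over Chaf1a, 2 subunits of CAF-1, was 0.917, 0.874 and 0.955 in wildtype and 1.85, 1.97 and 1.85 in KO libraries in full medium, 1.90, 1.60 and 2.47 in EBSS libraries labelled wildtype and 1.17, 0.860 and 0.927 in those labelled KO, and the last group overlapped wildtype in full medium.

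Ccne1 over Ccne2 ranged over 1.61 to 1.69 in wildtype and 2.78 to 3.32 in KO libraries in full medium, 5.10 to 6.16 in EBSS libraries labelled wildtype and 1.95 to 2.02 in those labelled KO. In the same order, Mcm3 over Mcm6 ranged over 0.723 to 0.756, 0.966 to 1.05, 1.48 to 1.85 and 0.806 to 0.895, and Rfc2 over Rfc5 over 0.983 to 1.12, 1.46 to 1.75, 2.75 to 3.24 and 1.03 to 1.12. All 3 ratios were highest in the EBSS libraries labelled wildtype, next in KO libraries in full medium, and lower in the other 2 groups. The EBSS libraries labelled KO overlapped the wildtype libraries in full medium in Rrm2 over Rrm1, Gins4 over Gins1, Rfc2 over Rfc5 and Chaf1b over Chaf1a.

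**Figure D5:**
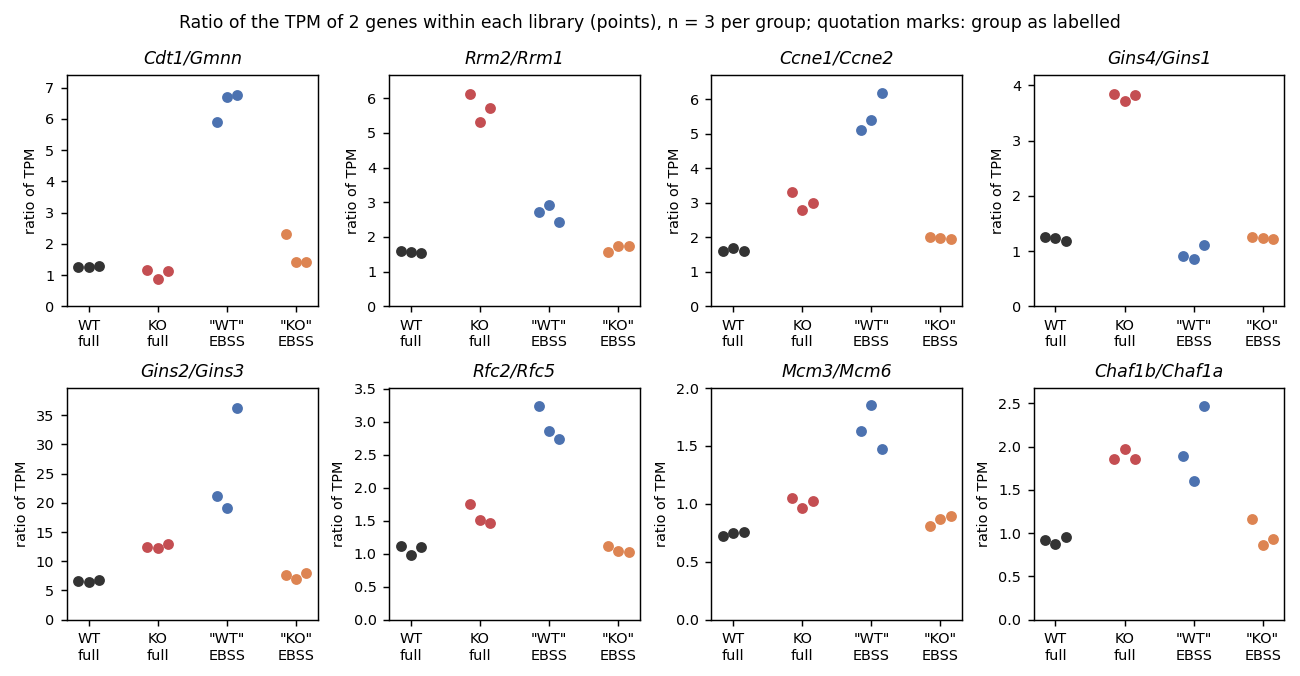
Ratio of TPM of 2 partner genes within each library, for 8 pairs, by group, with points for libraries. Cdt1 over Gmnn reaches 5.90 to 6.78 in the EBSS libraries labelled wildtype, and Rrm2 over Rrm1 reaches 5.32 to 6.13 in the KO libraries in full medium.

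Tested genes outside the list whose pattern was most like the mean of the 47 z-scores over the 12 libraries were, as deposited, Rnft1 (Pearson r = 0.997), Smug1 (0.997), Prps2 (0.996), Zbed4 (0.996) and Nedd1 (0.995). Rescaled, they were Gm6634 (0.970), Ndufa4 (0.960), Med6 (0.958), Csrp2 (0.956) and Erh (0.950). The 2 sets share no gene, and the 12 points share the composition shift of 3 libraries.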

How the data were processed

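The authors quantified polyadenylated RNA of 12 mouse embryonic fibroblast libraries, 3 per group, and deposited TPM values per gene symbol. The submitters' processing notes name Salmon, a quantifier, and the mm10 build. Which release of Salmon and which annotation were used, and how transcripts were combined per gene, is not given in the sources used here. TPM keeps no read depth, so the depth of each library is unknown and no counting interval is given; near-identical gene copies may have shared reads.

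Genes at 1 TPM or more in at least 3 libraries were tested (12653 of 25117; 4859 were at 0 in all 12). Values were log2(TPM + 1), and limma 3.58.1 in R 4.3.3 fitted 4 group means to all 12 libraries with an intensity trend, with Benjamini-Hochberg adjustment over all tested genes and calls at an adjusted p under 0.05. The fit was repeated on TPM divided by median-of-ratios size factors. Scripts were tested on simulated data. Ratios were compared by exact permutation in scipy 1.17.1 (Python 3.11.15), and figures drawn with matplotlib 3.10.9. Coordinates and gene models are from GENCODE vM21 (GRCm38), and promoters from RefSeq (GRCm38.p6).

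Values of every library were given for the gene of each role with the widest span of group means and the most abundant one, and for the 3 largest rises and falls of each comparison; of other lists, the largest rise and fall and Cdkn1a, Ccnd1 and Myc. The members, lists and rules were chosen with earlier results of these data known. Alternatives were pseudocounts of 0.1 and 0.5, no filter, a mean of at least 5 TPM, quantile normalization, 86 ribosomal protein genes left out, only the 6 libraries compared, a block for replicate number, and leaving out each library; leaving out libraries on the rescaled values, and the block there, were added after the data were seen. A member without a promoter entry is not analysed for sequence here.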

Additional observations from a re-analysis of the deposited data

Results flagged for a closer look

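For 6 genes the KO minus wildtype difference changed between full medium and EBSS, by limma's interaction term, among the 3 called genes with the largest values in each direction. The interaction was 2.93 (log2) for Tyms, 2.75 for Rfc5 and 2.21 for Gins3 as deposited, and 1.83, 1.63 and 1.22 rescaled. It was −1.26 for Cdt1, −1.19 for Chaf1b and −1.18 for Ccne1, and −2.41, −2.33 and −2.32 rescaled. Adjusted p-values as deposited were 7.6e-08, 8.8e-09, 3.6e-07, 4.5e-05, 1.3e-05 and 1.4e-05 in that order. For Tyms, Rfc5, Gins3 and Cdt1 the EBSS libraries labelled wildtype lay apart from the rest on both scales. For Chaf1b and Ccne1 the KO libraries in full medium lay highest as deposited only. The EBSS libraries labelled KO showed no loss of Rbbp5, and the EBSS libraries labelled wildtype had a ribosomal protein share of 31.7% to 34.2%; the part of either in these values was not tested.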

How the results depend on the processing

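Of 36 results for single genes under 750 alternatives, 726 kept direction and call, 24 lost the call and 0 reversed. The losses were those of Tk1, Orc6 and Pold3 given above. The 36 were picked as the called genes with the largest deposited changes, which made reversals unlikely from the start. Among all 47 genes, rescaling called 11 in opposite directions in EBSS over full medium in labelled wildtype. It did so for 10 between the EBSS groups, 8 in labelled wildtype EBSS against KO full medium, 6 in the interaction and 0 in the remaining comparisons. Of 474 alternative counts of called genes, 430 stayed within 1.5 times and 44 moved. Counts that moved are given as higher or lower. Shares of all tested genes were given above for the deposited and rescaled fits to all 12 libraries only. The counts under other settings, here and elsewhere, show how the calls moved and not how the 47 genes compare with other genes. Rescaling by median-of-ratios gave 20 higher and 10 lower for KO over wildtype in full medium, 8 and 21 for labelled KO against labelled wildtype in EBSS, 22 and 11 for EBSS over full medium in labelled wildtype, 5 higher for EBSS in labelled KO, 17 and 17 for labelled wildtype EBSS against KO full medium, and 6 and 21 for the interaction. Quantile normalization gave 15 and 14 for KO over wildtype labels in EBSS, 14 and 17 for labelled wildtype in EBSS over full medium, 12 and 22 for labelled wildtype EBSS against KO full medium, and 17 and 17 for the interaction. Leaving out ribosomal protein genes gave 10 lower for KO over wildtype labels in EBSS, 8 higher for labelled wildtype in EBSS over full medium, 10 higher for labelled wildtype EBSS against KO full medium and 15 lower for the interaction. Fitting only the 6 libraries compared gave 19 higher for KO over wildtype in full medium.

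Leaving out 1 library at a time gave, higher and lower, 10 to 18 and 15 to 18 for KO over wildtype in full medium, 34 to 37 and 4 to 5 for KO over wildtype labels in EBSS, 2 to 6 and 36 to 38 for labelled wildtype in EBSS over full medium, 7 to 13 and 14 to 20 for EBSS in labelled KO, 0 to 0 and 0 to 1 for labelled KO EBSS against wildtype full medium, 2 to 5 and 34 to 38 for labelled wildtype EBSS against KO full medium, and 28 to 31 and 5 to 8 for the interaction. Rescaled, in the same order, these were 18 to 22 and 4 to 14, 8 to 10 and 20 to 27, 20 to 25 and 11 to 13, 3 to 9 and 18 to 22, 0 to 0 and 0 to 0, 14 to 18 and 16 to 18, and 6 to 9 and 19 to 25. The higher count of labelled wildtype in EBSS over full medium was 2 without wildtype full medium replicate 2 or 3, labelled wildtype EBSS replicate 2 or labelled KO EBSS replicate 2. The rescaled lower count of KO against wildtype in full medium was 5, 4 and 6 without wildtype replicates 1, 2 and 3, and 6 without KO replicate 3. The rescaled higher count of EBSS in labelled KO was 3 without any 1 of the 6 full medium libraries or labelled KO EBSS replicate 2 or 3, and 9 without labelled KO EBSS replicate 1. The cause was not tested.

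Replicate numbers did not pair the libraries: deviations from the group means correlated at −0.0728 to 0.0793 over 18 pairs of the same number and −0.0978 to 0.0879 over 36 pairs of different numbers. With the replicate block, 15 were higher and 17 lower for KO over wildtype in full medium, 35 and 4 for KO over wildtype labels in EBSS, 4 and 36 for labelled wildtype in EBSS over full medium, 11 and 18 for EBSS in labelled KO, 0 and 0 for labelled KO EBSS against wildtype full medium, 2 and 37 for labelled wildtype EBSS against KO full medium and 30 and 7 for the interaction; among single genes it ended the call of Pold3 in labelled wildtype EBSS against KO full medium. Without read counts, differences of low genes are limited by an unknown depth.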
